A study of Mus musculus with 9 samples.

Results

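The T cell receptor recognises peptide bound to MHC molecules and passes the signal on through the CD3 chains. The members described here are 9 genes of this machinery, chosen by name: the CD3 genes Cd3d, Cd3e and Cd3g, the coreceptor genes Cd4, Cd8a and Cd8b1, the costimulatory receptor gene Cd28, the T lineage signalling gene Themis and the regulatory T cell factor gene Foxp3. All 9 were found among the 23499 genes of the deposited blood table. CD4 binds MHC class II and CD8, a dimer of the Cd8a and Cd8b1 products or of 2 Cd8a products, binds MHC class I. Mature T cells of the blood usually carry one coreceptor or the other. Foxp3 marks regulatory T cells, most of which also carry CD4.

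Blood cells of female 129SvE mice were read out by Seq-Well, which pairs single cells with barcoded beads in small wells. The labels give the tissue as PBMC and blood, and compare 4 healthy mice (disease stage 0, mice 1 to 4) with 5 mice sick with rheumatoid arthritis, called arthritic here. The arthritic mice 1, 3, 4, 5 and 6 are labelled stage 1.5, 2, 1.5, 1.5 to 2 and 2 to 2.5. The labels give no mouse age and no agent that induced the arthritis, and nothing says whether the mice were processed on separate days. A second deposited table holds joint cells, whose raw data were published earlier; its columns match no sample of this series, so it is used by class only, without mice.

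Each column of the table stands for a barcode, and its name holds a cell class called by the authors and the mouse. The T classes are deposited as T-cells-CD4- and T-cells-foxP3-, and are called CD4 T and foxP3 T here. The labels do not say whether the closing hyphen stands for negative, for a lost plus sign or for neither, so nothing is read from a class name about the gene in it. The B class is deposited as B-cells-GL7-positive-Alum and the granulocytes as granulocytes-mac1-gr1-. The values are whole-number signal. Of 4310 columns 1313 were identical to another, and 42 profiles occurred in both healthy and arthritic mice. Why profiles recur was not tested, and whether a column holds the signal of a single cell is not known. A column is therefore not read as a single cell, mice are less independent than the tests assume, and no counting intervals are given. Total signal per mouse lay between 330950 and 2053973 in healthy and between 8350920 and 13557201 in arthritic mice, so the healthy values rest on less material. Hemoglobin transcripts took from 0.630% to 54.9% of a mouse's signal. One barcode was shared by 2 blood mice and 1 by blood and joint. Levels below are signal per 1000000 (SPM), summed over the columns of a class or mouse, and are compared between samples or classes for one gene at a time.

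The CD3 genes share a short stretch of chromosome 9 in GENCODE M21 (GRCm38): Cd3g at chr9:44969572-44980431 (minus strand), Cd3d at chr9:44981786-44987339 (plus strand) and Cd3e at chr9:44998740-45009627 (minus strand). The starts of Cd3g and Cd3d point away from each other and lie 1355 bases apart. Cd3e overlaps an antisense gene model, and the strand of counting is not given in the sources used here. Cd8b1 (chr6:71322788-71337494) and Cd8a (chr6:71373427-71379173) are neighbours on the plus strand. Cd4 lies at chr6:124864692-124888221 (minus strand), Cd28 at chr1:60716800-60773359, Themis at chr10:28668360-28883818 and Foxp3 at chrX:7573644-7595245 (plus strands). Foxp3 and Themis also overlap other gene models. RefSeq promoter entries matched 6 of the 9 members. The 250 bases before the start are shown for the CD3 genes because these follow one another across the classes below; the RefSeq build is GRCm38.p6, each sequence runs toward its gene, and capitals mark the core that ETS factors bind (GGAA, or TTCC on the other strand).
Cd3d, chr9:44981536-44981785, plus strand: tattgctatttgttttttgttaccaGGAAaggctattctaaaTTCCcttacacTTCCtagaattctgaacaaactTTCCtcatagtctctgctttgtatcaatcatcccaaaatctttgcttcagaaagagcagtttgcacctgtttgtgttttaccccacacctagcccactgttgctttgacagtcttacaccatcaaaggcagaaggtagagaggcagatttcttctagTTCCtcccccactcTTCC
Cd3e, chr9:45009612-45009861, minus strand: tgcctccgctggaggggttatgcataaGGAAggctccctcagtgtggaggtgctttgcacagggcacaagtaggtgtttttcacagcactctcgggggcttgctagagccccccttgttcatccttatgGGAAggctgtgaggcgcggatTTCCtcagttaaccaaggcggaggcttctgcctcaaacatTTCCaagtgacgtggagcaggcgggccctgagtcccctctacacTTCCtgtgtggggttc
Cd3g, chr9:44980432-44980681, minus strand: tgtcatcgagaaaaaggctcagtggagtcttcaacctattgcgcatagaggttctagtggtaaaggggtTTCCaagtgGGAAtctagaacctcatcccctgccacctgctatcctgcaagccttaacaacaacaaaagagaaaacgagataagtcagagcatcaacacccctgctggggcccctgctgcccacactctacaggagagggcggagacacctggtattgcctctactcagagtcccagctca

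The core GGAA occurred 6 times before Cd3d, 5 times before Cd3e and 2 times before Cd3g. Among 32851 RefSeq promoter windows of the same length, 93.4% held it at least once and the median was 3 matches. The E box CANNTG, which reads alike on both strands, occurred 1, 1 and 3 times, and 66.2% of the windows held it. None of the windows before Cd3d, Cd3e and Cd3g held TATAAA on either strand, which 12.4% of all windows did. These matches describe letters and show no binding.

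In blood, the level of each of the 9 genes was highest in the CD4 T class (450 columns, 421 distinct profiles). This held for every one of the 18 T cell markers, among which Cd3d, Cd3e, Cd3g, Cd28 and Themis are themselves members. The T in the name of the class thus fits its markers. The authors called the classes from the same cells, so levels between classes are a description without a test. Cd3d stood at 457 SPM in the CD4 T class, 234 in the foxP3 T class (331 columns), 224 in B cells (1301), 112 in myeloid dendritic cells (122), 40.1 in granulocytes (1905) and 17.4 in myeloid progenitors (193). Cd3e, the chain on which the CD3 pairs are built, stood at 260 SPM in the CD4 T class, 86.6 in the foxP3 T class and 88.4 in B cells. It stood at 23.6 in dendritic cells, 11.2 in granulocytes and 6.29 in progenitors. Cd3g stood at 376, 182 and 182 SPM in the CD4 T, foxP3 T and B classes, and at 68.2, 13.6 and 9.92 in dendritic cells, granulocytes and progenitors. The CD3 genes thus stood lower in the myeloid than in the lymphoid classes, with foxP3 T and B cells near the same level. With hemoglobin genes out of the total, foxP3 T stood above B cells, at 374 against 228 SPM for Cd3d, 139 against 90.1 for Cd3e and 291 against 186 for Cd3g.

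The coreceptor genes were also highest in the CD4 T class. Cd4 stood at 119 SPM in the CD4 T class, 51.0 in the foxP3 T class, 61.1 in B cells, 32.0 in dendritic cells, 5.08 in progenitors and 3.21 in granulocytes. Cd8a stood at 84.1 SPM in the CD4 T class, 30.9 in the foxP3 T class and 31.0 in B cells, and at 12.6 or less in the other 3. Cd8b1 stood at 227 SPM in the CD4 T class, 59.9 in the foxP3 T class and 89.2 in B cells. The genes of both coreceptors were thus highest in the same class. Cd28, whose product binds CD80 and CD86 on presenting cells, stood at 176, 97.4 and 91.4 SPM in the CD4 T, foxP3 T and B classes. Themis, needed for T cell selection in the thymus, stood at 89.4, 25.7 and 29.5 SPM. Foxp3 stood at 15.0 SPM in the CD4 T class, 5.65 in B cells and 2.21 in the foxP3 T class, and was 0 in dendritic cells and progenitors.

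**Figure D1:**
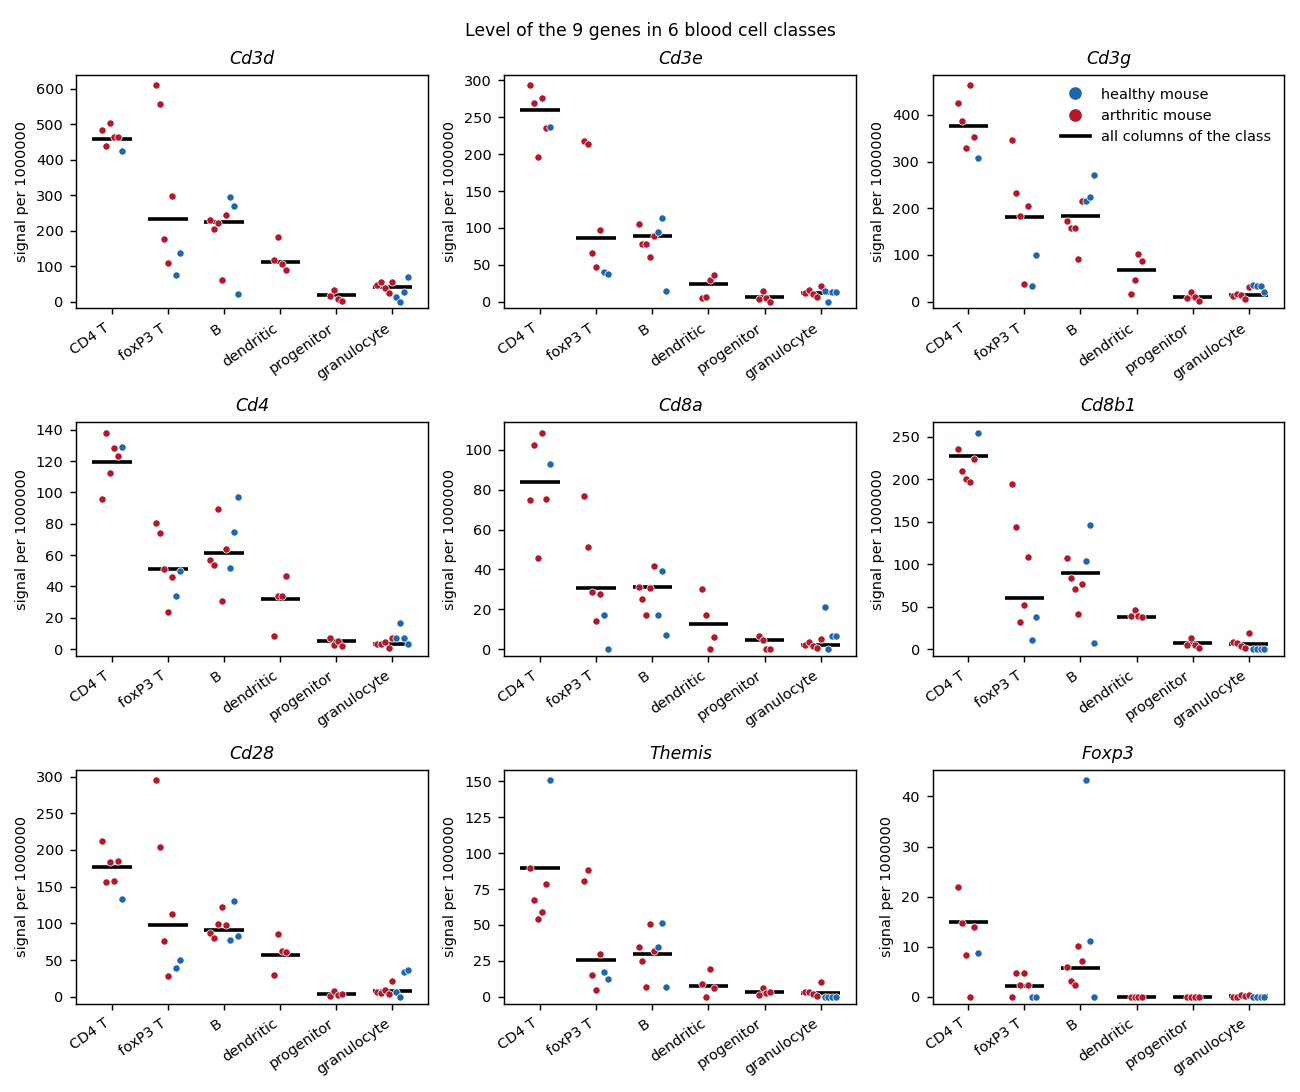
Level of each gene (signal per 1000000, linear axis) in 6 blood classes; black lines give the value over all columns of a class and points give mice with at least 5 columns in it, blue healthy and red arthritic. The black line is highest in the CD4 T class in all 9 panels, and the foxP3 T class spreads widely between mice.

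Spread between mice set how far this order can be read. Taking each class by the mean of mice with at least 5 columns, the ranges of the top class and the next overlapped for 7 of 9 members, all but Cd3g and Cd8b1, and the second and the next class in the order overlapped for all 9. Within the CD4 T class, Cd3d was 463 ± 28.8 SPM, Cd3e 251 ± 35.4, Cd3g 377 ± 59.6, Cd4 121 ± 14.9 and Cd8b1 220 ± 22.2 (SD, n = 6 mice). Relative to the mean, it was wider for Cd8a (45.8 to 108 SPM), Foxp3 (0 to 21.9) and Themis, which ran from 54.1 SPM in arthritic mouse 4 to 151 in healthy mouse 2. Within a mouse, the CD4 T class exceeded the B class in 6 of 6 mice for all members except Foxp3, for which it did in 4 of 6. By mouse mean, Foxp3 was 11.3 ± 7.40 SPM in the CD4 T class and 10.4 ± 13.8 in B cells (n = 6 and 8); the B value rests on healthy mouse 1, with 43.2 SPM from 9 columns.

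The CD4 T class could be compared between groups in no test, because only healthy mouse 2 (79 columns) among the healthy mice gave 5 or more. The other healthy mice gave 2, 0 and 0 columns, and the arthritic mice gave 133, 104, 26, 7 and 99. Healthy mouse 2 lay below all 5 arthritic mice for Cd3d (425 SPM against 438 to 503), Cd3g (307 against 329 to 463) and Cd28 (133 against 156 to 212). It lay above all of them for Cd8b1 (254 against 197 to 235) and Themis (151 against 54.1 to 89.4). These are values of 1 healthy mouse.

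The foxP3 T class varied far more between mice, and its hemoglobin varied beside it. Cd3d in this class was 73.9 SPM in healthy mouse 3 and 138 in healthy mouse 4. It was 610, 558, 176, 108 and 298 SPM in arthritic mice 1, 3, 4, 5 and 6. The high values belonged to arthritic mice 1 and 3, where hemoglobin took 0.174% and 0.657% of the class's signal. In the other 5 mice hemoglobin took from 18.5% to 61.7%, and the highest Cd3d value was 298 SPM. In arthritic mice 1 and 3 the foxP3 T class exceeded the CD4 T class of the same mouse for Cd3d (610 against 483, and 558 against 438) and for Cd28 (295 against 212, and 205 against 156). Themis, Cd8a and Foxp3 exceeded it in 1 of the 5 mice with both classes, and Cd3e, Cd3g, Cd4 and Cd8b1 in none.

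Taking hemoglobin genes out of the total moved Cd3d in the foxP3 T class from 234 to 374 SPM and Cd4 from 51.0 to 81.7, still under the CD4 T class (460 and 120). By mouse, Cd3d without hemoglobin ran from 171 to 611 SPM, with a median of 321 over 7 mice. With hemoglobin in the total, Cd3d had run from 73.9 to 610 SPM. Changing the total thus raised the lowest value and narrowed the spread in fold, but did not remove it. Arthritic mouse 4 alone gave 203 of the 331 columns, and 167 of the 331 columns were identical to another column. Markers of other cell types stood beside the low T genes: of 16 NK cell markers 11 were highest in this class, as were 7 of 14 erythroid markers, and none of the 18 T cell markers. The NK list summed to 993 SPM there and 463 SPM in the CD4 T class, but to 2095 in myeloid dendritic cells and 1546 in granulocytes. Tyrobp and Fcer1g, both on this list, alone stood at 986 and 830 SPM in dendritic cells. The share of all genes that were highest in the foxP3 T class was not computed. The part of other cell types in the values of the foxP3 T class was not tested.

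**Figure D2:**
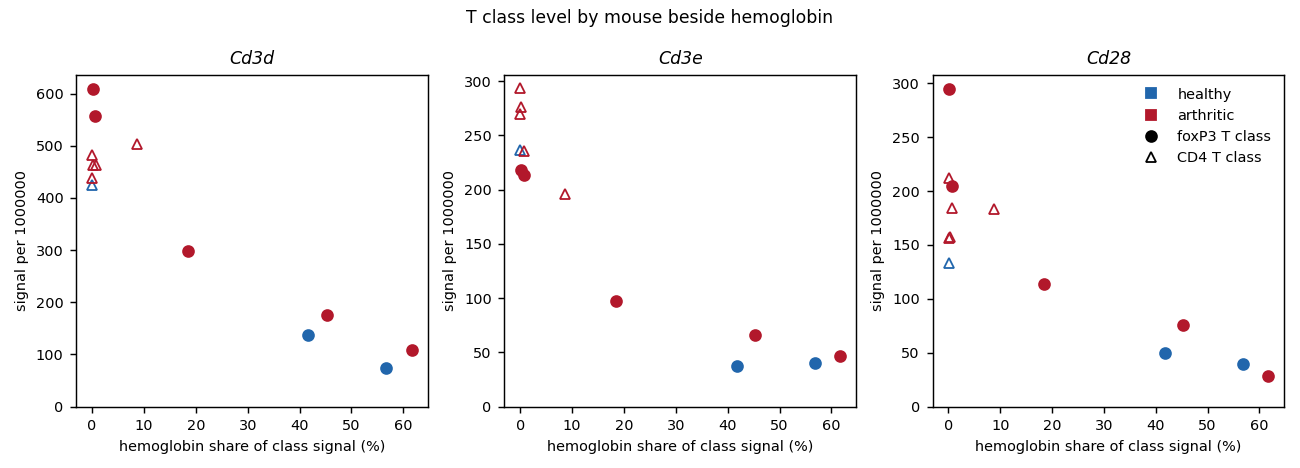
Level of Cd3d, Cd3e and Cd28 (signal per 1000000) against the hemoglobin share of the same class and mouse (percent), filled circles for the foxP3 T class and open triangles for the CD4 T class. The foxP3 T circles of arthritic mice 1 and 3 lie at under 1% hemoglobin, at 610 and 558 SPM for Cd3d, and the other 5 lie lower and to the right.

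Foxp3 was found in 8 of 331 foxP3 T columns (2.42%) and in 72 of 450 CD4 T columns (16.0%), and in 76 of 1301 B columns (5.84%). Columns differ in depth, with a median signal of 10366 in the foxP3 T class and 8448 in the CD4 T class. After thinning each column to 6000, Foxp3 remained in 0.906%, 5.78% and 3.31% of columns. By mouse, Foxp3 in the foxP3 T class was 0 in both healthy mice and in arthritic mouse 1, and 4.65, 2.29, 4.68 and 2.31 SPM in arthritic mice 3, 4, 5 and 6. Foxp3 was thus lower in the foxP3 T class than in CD4 T or B cells, a description without a test.

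Within the CD4 T class, columns with Foxp3 were deeper than those without, with a median signal of 18971.5 against 7734.5. Il2ra, the interleukin 2 receptor chain carried by regulatory T cells, stood at 11.6 SPM in the columns with Foxp3 and 31.4 in those without. Cd4 stood at 85.8 and 130 SPM. Ctla4, an inhibitory receptor of regulatory T cells, stood at 52.6 and 46.3 SPM. Ikzf2, a factor of regulatory T cells, stood at 63.4 and 49.9 SPM, and Tnfrsf18, a receptor on them, at 114 and 81.6. Tnfrsf4, also on the list of regulatory T cell genes, went the other way, as Il2ra did, at 15.5 and 40.9 SPM. In each of the 5 mice that had columns with Foxp3, Il2ra was lower and Tnfrsf18 higher in these; 2 to 29 columns a mouse carry these values.

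Coreceptors were found together in most CD4 T columns. Cd4 was found in 68.0% of the 450 columns, Cd8a in 54.4% and Cd8b1 in 85.1%. Cd4 occurred with Cd8a or Cd8b1 in 63.3% of columns, and the CD8 genes occurred without Cd4 in 30.0%. Cd4 without either CD8 gene made up 4.67%, and neither was found in 2.00%. Since a column is not read as a single cell, this is no count of cells with both coreceptors. Thinned to 6000, the same shares were 42.2%, 42.7%, 7.11% and 8%. By mouse, columns with both made up 65.8% in healthy mouse 2 and 58.6%, 66.3%, 46.2% and 67.7% in arthritic mice 1, 3, 4 and 6, and all 7 columns of arthritic mouse 5.

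The CD4 T columns with Cd8b1 (383) and without it (67) were also compared, as a description; their median signal was 8943 and 6935. Cd4 stood at 116 SPM with Cd8b1 and 144 without, and Cd8a at 84.7 and 78.1. Nkg7, a granule gene of cytotoxic cells, stood at 109 SPM in both, and the chemokine gene Ccl5 at 77.5 and 133. Zbtb7b, the factor of the helper lineage, stood at 6.60 and 14.5 SPM, and Runx3, another T lineage factor, at 32.6 and 45.4. The order of Zbtb7b was reversed in arthritic mice 1 (5.13 against 0 SPM) and 5 (11.5 against 0, with 1 column without Cd8b1). That of Cd4 was reversed in healthy mouse 2 (132 against 94.8 SPM) and arthritic mouse 4 (122 against 37.8). Cd8a was reversed in arthritic mice 1 (69.6 against 111 SPM) and 6 (75.4 against 77.0). Runx3 was reversed in arthritic mouse 3 (44.5 against 25.2 SPM), and Ccl5 in arthritic mice 3 (82.5 against 58.8) and 5 (57.4 against 0). Across the 421 distinct profiles, the members' raw signal varied with depth: Spearman's rho over the 36 pairs ran from -0.12 to 0.49. With every profile thinned to 6000 it ran from -0.14 to 0.15, with a median of -0.00059. In the 220 distinct profiles of the foxP3 T class the median rho was 0.11 over 36 pairs before thinning. After it the median was 0.13 over 28 pairs, since the pairs with Foxp3 could not be computed. These medians are of different sets of pairs and show no rise.

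**Figure D3:**
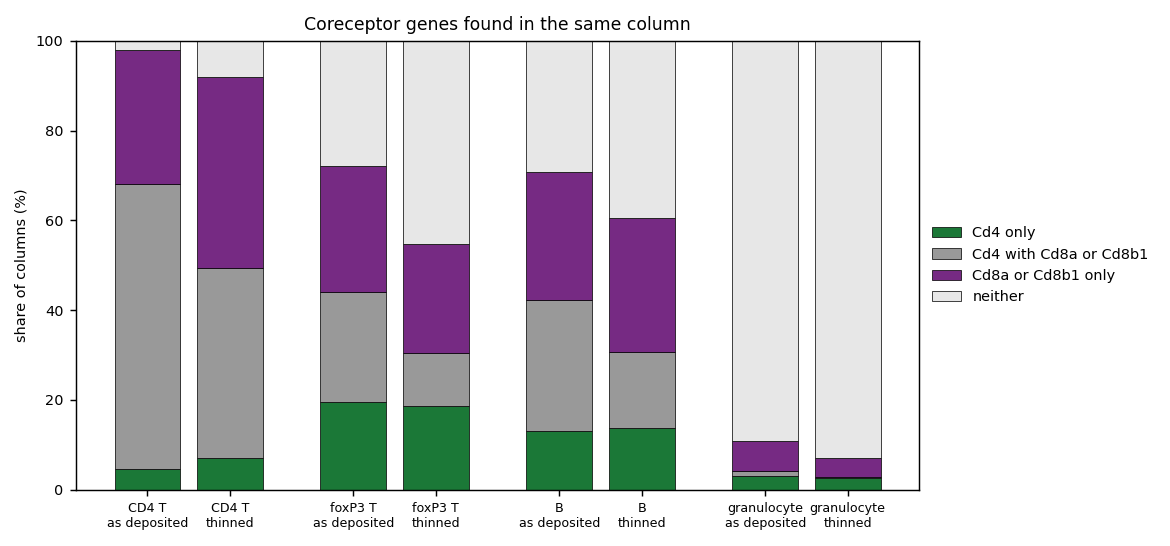
Share of columns (percent) in which Cd4, a CD8 gene, both or neither was found, in 4 blood classes, as deposited and with each column thinned to a signal of 6000. In the CD4 T class the part with both is 63.3% as deposited and 42.2% thinned, and Cd4 alone stays at 7.11% or less.

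B cells, which carry no T cell receptor, held much of the signal of these genes. Their levels were 33.0% (Themis) to 51.8% (Cd28) of those in the CD4 T class. Because the B class is larger, it held 40.4% of all blood signal of Cd3d against 31.9% in the CD4 T class, 44.5% against 35.4% of Cd3g, and 46.7% against 35.2% of Cd4. Cd28 followed with 44.4% against 33.1%, and Cd8b1 with 42.6% against 41.9%. For the other 4 the CD4 T class held more: 42.4% against 37.3% of Cd3e, 41.5% against 39.6% of Cd8a, 44.6% against 38.1% of Themis and 47.1% against 45.9% of Foxp3. Any CD3 gene was found in 90.2% of B columns, 83.2% once thinned.

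Granulocytes differed between the members. Cd3d was found in 36.3% of their 1905 columns, while the other members were found in 0.210% (Foxp3) to 14.3% (Cd3g). The granulocyte level of Cd3d was 8.78% of its CD4 T level in blood and 7.40% in the joint. For the other 8 members it was 0.983% to 4.50% in blood and 0.611% to 2.66% in the joint. Among 22 T cell genes, the markers and the members together, Cd3d had the highest such share in both tables. Next in blood came Cd2 at 7.24%, and next in the joint Il7r at 3.81%. In 441 blood granulocyte columns (23.1%) Cd3d was found with no other member, and in 1633 of 6487 joint granulocyte columns (25.2%). In blood this share was 10.04% to 29.4% in the arthritic mice and 0% to 15.0% in the healthy mice, which gave only 5 to 20 granulocyte columns each. Thinned to 6000, Cd3d was found in 21.5% of blood granulocyte columns and the next member, Cd3g, in 8.61%.

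**Figure D4:**
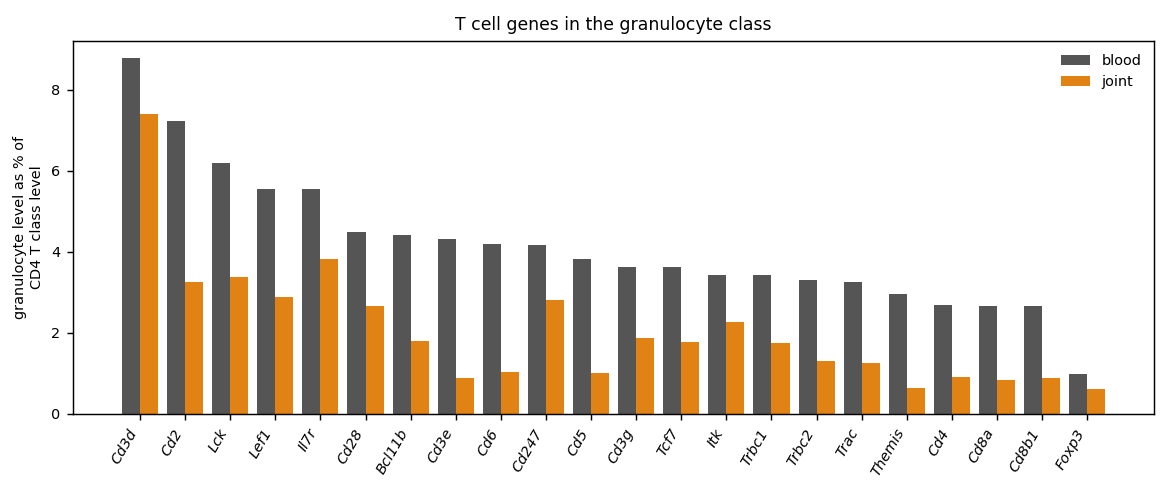
Granulocyte level of 22 T cell genes as a percent of the level in the CD4 T class of the same table, grey for blood and orange for joint. Cd3d has the tallest bar in both tables, at 8.78% and 7.40%.

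In the joint table the CD4 T class (28 columns) was again the highest for each member. Cd3d stood at 397 SPM, Cd3e at 269, Cd3g at 280, Cd4 at 131, Cd8a at 67.2, Cd8b1 at 242, Cd28 at 137, Themis at 99.3 and Foxp3 at 23.4. The joint foxP3 T class (179 columns) was lower than its blood counterpart for all 9 genes, with Cd3d at 79.1 SPM, Cd3e at 21.6, Cd4 at 20.7 and Foxp3 at 2.16. For Foxp3 this rests on 5 and 8 units of signal, and without hemoglobin genes in the total it was 3.94 SPM in the joint and 3.53 in blood. The joint has no replicates here, and the tables were made separately. Joint B cells (63 columns) held Cd28 at 112 SPM, 81.6% of the joint CD4 T level. Because granulocytes fill most of the joint table, they held 83.02% of all joint signal of Cd3d but 47.8% of Cd3e and 35.9% of Cd4.

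A joint class named for macrophages treated with LPS (67 columns) stood apart. Cd4 was found in 20 of its columns and stood at 23.8 SPM, 18.1% of the CD4 T level, and Cd3d stood at 20.2 SPM. Cd3e, Cd3g, Cd8a, Cd8b1, Cd28, Themis and Foxp3 were all 0 there. In 9 of these columns Cd4 was found without any CD3 gene. Of the 13 monocyte and macrophage markers 12 were highest in this class, and 11 of the 18 T cell markers were 0. In 58 joint osteoblast columns the only signal of any member was 1 unit of Cd3g.

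Over all blood columns of a mouse, the members did not separate healthy from arthritic mice. Here the level follows the mix of cells as well as expression: fewer T cells and less RNA per T cell cannot be told apart. Cd3d was 108, 260, 71.6 and 80.3 SPM in healthy mice 1 to 4, and 114, 126.3, 116, 54.1 and 157 in arthritic mice 1, 3, 4, 5 and 6, on the scale of trimmed mean of M values (TMM). Cd4 was 18.8, 75.4, 33.7 and 42.4 SPM in the healthy and 22.0, 30.8, 31.7, 5.77 and 39.5 in the arthritic mice. Cd8b1 was 32.9, 148, 8.43 and 11.2 SPM in the healthy and 47.2, 48.7, 27.0, 9.55 and 59.3 in the arthritic mice. Healthy mouse 2 was the highest of all 9 mice for each member except Foxp3, and arthritic mouse 5 was the lowest for 7 of these 8. Cd8b1 was the exception, lowest in healthy mouse 3. The groups overlapped for all of them.

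Of the members, 8 passed the filter of 10 SPM in at least 4 mice and were tested with limma over 8459 genes; Foxp3 did not. At an adjusted p under 0.05, 0.0473% of all genes were called (0.0118% higher, 0.0355% lower), and 0 of the 8 members; the smallest unadjusted p among them was 0.187, and 1133 genes lay under 0.05 unadjusted. The 4 genes called, named here after their values were seen, were Cd177 (higher) and AF357399, Mir6236 and Mir6240 (lower). Log2 differences (arthritic minus healthy) were -0.07 ± 0.40 for Cd3d (SE, limma adjusted p = 0.944) and -0.07 ± 0.50 for Cd3e (adjusted p = 0.953). Cd3g gave -0.62 ± 0.47 (limma adjusted p = 0.517) and Cd28 -0.59 ± 0.42 (adjusted p = 0.5). For the coreceptors they were -0.75 ± 0.54 for Cd4, -0.36 ± 0.55 for Cd8a and 0.28 ± 0.77 for Cd8b1 (limma adjusted p = 0.497, 0.749 and 0.873), and -0.34 ± 0.74 for Themis (adjusted p = 0.834).

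The 95% intervals were wide, from -1.93 to 0.42 for Cd4 and from -1.41 to 1.97 for Cd8b1, so differences of more than 2-fold remain within them. For Cd8b1 the log2 scale and the arithmetic means differ in sign, with means of 50.0 SPM in healthy and 38.3 in arthritic mice, because healthy mouse 2 is so high. The median of the 8 tested members was -0.35 and that of all genes 0.26; 7 of the 8 were negative, against 30.7% of all genes. Directions rested on single mice: without healthy mouse 2, Cd3d (0.29), Cd3e (0.39), Cd8a (0.085) and Themis (0.39) were positive, and without arthritic mouse 5 so were Cd3d (0.18), Cd3e (0.21) and Themis (0.05). Cd8b1 was negative without healthy mouse 3 (-0.23) or 4 (-0.11). No member had groups of mice that do not overlap, against 3.64% of genes higher and 1.26% lower. Foxp3 was 11.7, 7.31, 0 and 0 SPM in healthy mice 1 to 4, from 5, 19, 0 and 0 units of signal. It was 3.03, 2.26, 1.39, 0.597 and 4.06 SPM in the arthritic mice.

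**Figure D5:**
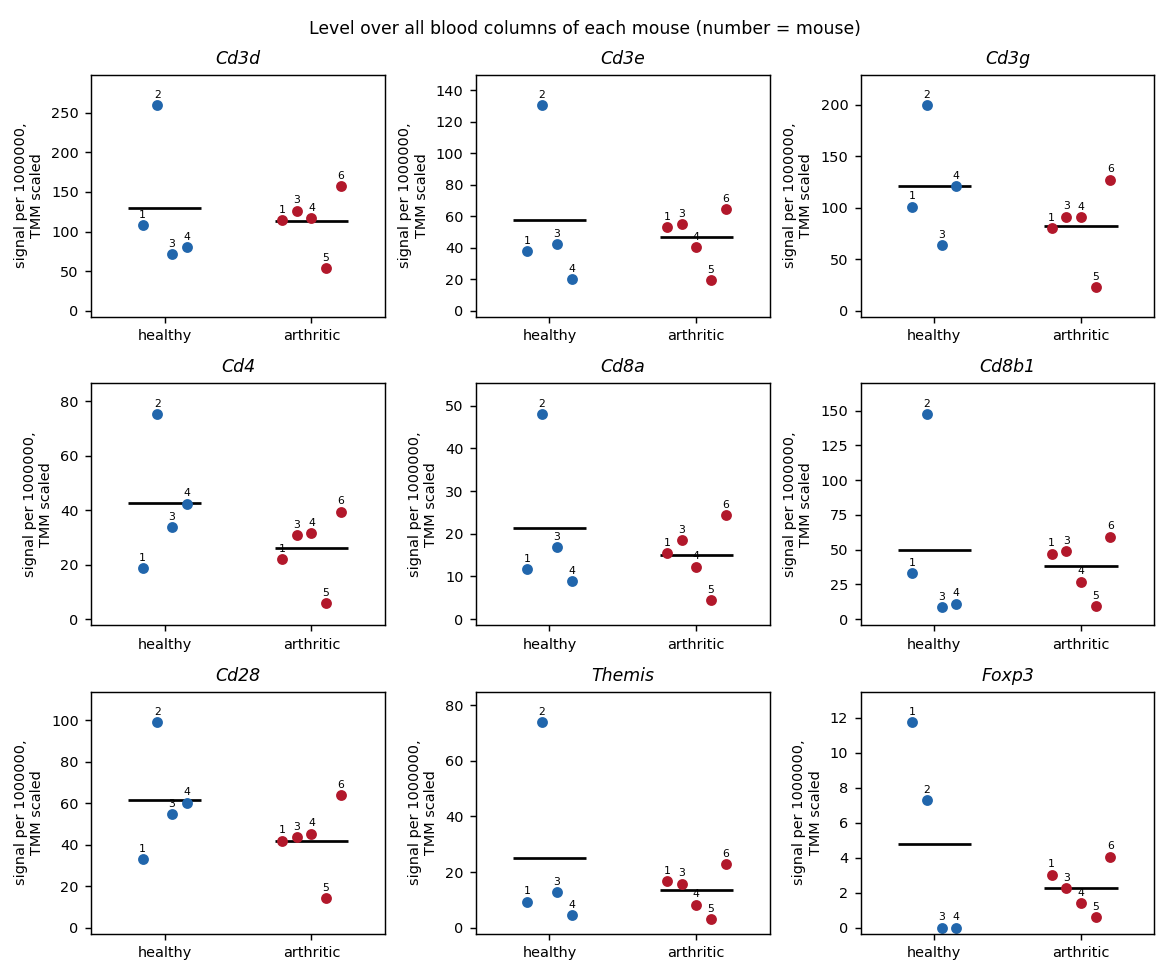
Level of each gene over all blood columns of a mouse (signal per 1000000, TMM scaled), healthy in blue and arthritic in red, with mouse numbers and a line at the group mean. Healthy mouse 2 is the highest point in all panels but Foxp3, and the groups overlap in each panel.

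The share of columns in the T classes showed the same spread. CD4 T columns made up 6.67%, 39.3%, 0% and 0% of the columns of healthy mice 1 to 4 and 13.0%, 10.8%, 3.61%, 1.39% and 12.5% of those of the arthritic mice. The means were 11.5% ± 18.8 and 8.24% ± 5.36 (n = 4 and 5 mice, SD; by exact permutation, two-sided, p = 0.825). Without healthy mouse 2 the difference turned from -3.25 to 6.02 percentage points (exact permutation p = 0.179). FoxP3 T columns made up 6.67%, 1.99%, 53.8% and 17.8% of the healthy and 2.24%, 1.66%, 28.2%, 2.99% and 5.79% of the arthritic mice (20.1% ± 23.5 against 8.17% ± 11.3; exact permutation p = 0.413). With healthy mouse 3 left out, that difference shrank from -11.9 to -0.64 percentage points. The smallest p this design allows is 0.0159, and healthy mice 1, 3 and 4 gave only 30, 26 and 45 columns in all.

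Genes that followed the CD3 genes most closely were sought over 38 sums of a class within a mouse, as a description. These sums share mice, depth and the authors' classes. Among 13623 genes, the highest Pearson correlations with the mean log2 level of Cd3d, Cd3e and Cd3g were those of Trbc2 (0.961), Lck (0.953), Trac (0.938) and Trbc1 (0.935). Trac, Trbc1 and Trbc2 encode constant parts of the T cell receptor, and Lck the kinase that starts its signal. Dapl1, Ms4a4b, Gimap1, Gimap6, Cd2 and Satb1 followed, down to 0.927. Of the other members, Cd28 reached 0.923, Cd8b1 0.88, Cd4 0.858, Themis 0.839, Cd8a 0.808 and Foxp3 0.669.

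Other genes of the pathway are given by list, beside all genes: of 12346 genes with at least 10 SPM in a class, 21.5% were highest in the CD4 T class. Of 33 genes of receptor-proximal signalling and constant chains 27 were highest there, among them Ptprc, Trbc2 and Trbc1, at 1559, 1495 and 709 SPM. Of 14 costimulation and checkpoint receptors, Cd28 included, 10 were, among them Icos (125.5 SPM) and Tnfrsf18 (89.4). Of 15 regulatory T cell genes, Foxp3 included, 8 were, among them Ikzf2 (53.1) and Ctla4 (47.8). Of 17 T lineage factors and regulators, Themis included, 10 were, among them Ets1 (1188), Satb1 (601) and Tcf7 (529). Of 16 cytotoxic and NK genes only Prf1 was, at 17.4 SPM; Nkg7, Ccl5 and Tyrobp stood at 109, 83.1 and 69.1 SPM in the CD4 T class. Ccl5 reached 200.002 SPM in the foxP3 T class.

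Between healthy and arthritic mice, 0 genes of the 5 lists were called in either direction by limma. In receptor-proximal signalling 26 of 29 tested genes were negative (median -0.43 against 0.26 for all genes). The smallest p values were those of Grap2, an adaptor of this pathway (-0.92 ± 0.31, limma adjusted p = 0.286), the phosphatase gene Ptpn22 (-0.80 ± 0.31, adjusted p = 0.323) and Cd2 (-0.68 ± 0.34, adjusted p = 0.395). Vav1, named here because its groups of mice also do not overlap, was -0.37 ± 0.20 (limma adjusted p = 0.404). In costimulation 7 of 9 were negative (median -0.13), with Cd226 (-0.99), Cd96 (-0.47) and Tnfrsf4 (-0.42) at the smallest p. Regulatory T cell genes split 3 and 3 (median 0.10), with Ikzf2 at -0.68, Izumo1r at 1.39 and Capg at 0.28. Of 14 T lineage factors 11 were negative (median -0.50), with Id3 at -0.59, Satb1 at -0.65 and Runx3 at 0.76. Of 9 cytotoxic and NK genes 6 were negative (median -0.62), with Klrk1 at -1.25 (groups of mice apart, as in 1.26% of all genes), Xcl1 at -1.02 and Fcer1g at 1.06. The limma adjusted p of these 12 genes lay between 0.227 and 0.722. The 15 neutrophil markers tested were all positive (median 2.86), with 1 called, and their summed level was 5622 to 11218 SPM in healthy and 21849 to 160444 in arthritic mice. The part of this in the T cell values was not tested.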

How the data were processed

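Blood of 4 healthy and 5 arthritic mice was analysed. Per the labels' protocols, read 1 carried the barcode, read 2 the transcript from the polyA tail, and the Drop-seq core protocol was run on GRCm38.p5. For the aligner, the cell filter, the calling of classes and molecular identifiers, the sources used here give no details. The authors deposited signal, whole-number values per gene and column that are not scaled to a common total. These values are not read here as counts of single cells. In the joint table, 43 columns of 3 small classes were not used. No doublet caller was run.

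Signal was summed per class, mouse or both and divided by its total (per 1000000). Per-mouse sums were scaled with TMM factors, taken as log2 with a pseudocount of 1 and tested with limma 3.58.1 (trend, R 4.3.3) where at least 10 in 4 mice, with Benjamini-Hochberg adjusted p under 0.05. Fold changes on this scale understate low genes. Shares were compared by two-sided exact permutation over all splits of the mice. A mouse enters a class with 5 columns. Thinning drew 6000 units per column. Mice are the replicates, 4 and 5 a group, with total signal from 330950 to 13557201 per mouse. The p-values set a difference between groups against the variation between these mice, which are less independent than the tests assume. The fit was checked on simulated data with known changes. Sums and permutations ran in Python 3.11.15 (scipy 1.17.1, pandas 2.3.3, numpy 2.4.6).

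The members and lists were chosen with earlier results of these data known. Named genes are the members, per list the 3 smallest limma p and the 3 highest in the CD4 T class, and the 10 most correlated with the CD3 genes; genes outside this rule are named as markers or as chosen after their values were seen. Alternatives changed scaling, filter, pseudocount, weights, genes, columns and mice.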

Additional observations from a re-analysis of the deposited data

Results flagged for a closer look

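Of 40 groups of 4 or 5 mice examined, 3 held a value far from the others, and chance alone gives about 1 in 20. Themis over all blood columns was 73.9 SPM in healthy mouse 2, where the next healthy mouse had 12.6. CD4 T columns made up 39.3% of the columns of the same mouse, against 6.67% in the next. FoxP3 T columns made up 28.2% of the columns of arthritic mouse 4, against 5.79% in the next arthritic mouse.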

How the results depend on the processing

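None of the 8 tested members passed the threshold in limma under any alternative run (smallest adjusted p 0.299). Of the members' values under the alternatives, 157 kept their direction and 17 did not. The 4 genes called became 19 with scaling by total signal alone (19 higher, 0 lower, against 1 and 3), 10 with hemoglobin genes left out, 7 with a pseudocount of 5, 7 with columns identical to the other group left out, and 7 with mice thinned to the smallest total. They became 0 with no filter on low genes (3997 under 0.05 unadjusted) and 0 with array weights (968), and 0 to 64 with a mouse left out, the most without arthritic mouse 6. Median-of-ratios factors moved the median of all genes from 0.26 to 0.15, and thinned mice to 0.08.

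With columns identical to the other group left out, Cd3d turned to 0.14, Cd3g to 0.037 and Themis to 0.11, and with array weights Cd3e turned to 0.093. With a mouse left out, Cd3d ran from -0.28 to 0.29, Cd3e from -0.45 to 0.39, Cd8a from -0.65 to 0.085, Cd8b1 from -0.23 to 1.06, Themis from -0.84 to 0.39 and the CD4 T share difference from -7.08 to 6.02 points. The cause was not tested.

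The mouse numbers 1, 3 and 4 occur in both groups, but the labels give no pairing, and the main fit used none. Same-numbered mice did not deviate together in all cases (correlations -0.004, -0.287 and 0.301), and their best matches were other numbers. With 3 values, this cannot show whether they share more than a number. With the mouse numbers as a replicate block, 35 genes were called, Cd3d was 0.47, Cd3e 0.61, Cd8a 0.30 and Themis 0.61. Healthy mouse 2 and arthritic mice 5 and 6 share no number with the other group and add nothing to these differences. The differences thus rest on mice 1, 3 and 4 of each group, without the mice on which directions rested above. In the same fit Cd8b1 was 1.37 (limma unadjusted p = 0.0116, adjusted p = 0.307). Over the shared numbers the CD4 T share difference was 6.89 points (exact permutation p = 0.25, the smallest that 3 pairs allow).

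Leaving out hemoglobin moved Cd4 in the foxP3 T class from 51.0 to 81.7 SPM, by more than its SD between mice. The other 80 class levels recomputed moved by less than their SD. That SD is wide in the foxP3 T class, so its levels are not thereby shown to be stable. Without hemoglobin, Cd3d there moved from 234 to 374 SPM (SD 220) and Cd28 from 97.4 to 156 (SD 99.4). Of the shares of columns with a member, 23 moved under thinning or a minimum of 2 units and 31 did not. The healthy mice, with 26 to 201 columns, limit the comparisons between groups.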
